A study of Mus musculus with 22 samples.

Results

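The 7 genes described here are Adgrf5, AU018091, Arhgef6, Ass1, Cobl, Dlc1 and Fnd3c2, of 19721 genes listed in at least 1 library of the series. They were chosen by their counts in TBBPA (tetrabromobisphenol A, a flame retardant that carries bromine) against vehicle: the RNA of each was called lower at 4 of 5 days of embryoid body culture. Values of that comparison are therefore given below as a description. Where a day is said to be called or not called in it, the call restates the choice and is no further evidence. All 7 passed the filter on low counts in each model used.

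RNA was sequenced from J1, an established mouse embryonic stem (ES) cell line, and from embryoid bodies, clumps of such cells that differentiate towards all germ layers. The groups were 2 libraries of untreated ES cells and, at days 4, 9, 12, 18 and 28 (D4 to D28), 2 libraries with 0.1% dimethyl sulfoxide (DMSO), 1 with 10 nM TBBPA and 1 with 100 nM TBBPA. All groups come from the single J1 line. Nothing in the labels ties the libraries of a group to separate cultures, so the spread behind each p-value may be technical only.

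Several of the genes act on the actin cytoskeleton, in part through small GTPases, which switch between a GTP-bound active form and a GDP-bound inactive form. Exchange factors load GTP, and GTPase-activating proteins end the active state. Others serve arginine: argininosuccinate synthase joins citrulline and aspartate in the step before arginine is released, and cationic amino acid transporters carry arginine and lysine across membranes.

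Each library held between 18158583 and 18998141 estimated counts. The mean chi-square per gene between the counts of the DMSO pairs was 1.63 to 3.38, where 1 is counting noise, and between the ES libraries it was 22.5. The naive pluripotency markers summed to 5906 to 6965 CPM (counts scaled to the TMM library size) in ES cells and to 827 in both D12 DMSO libraries, with none of the 16 at 0 in either group. Embryoid bodies are mixtures measured here in bulk, in which fewer cells of a type and less RNA per cell cannot be told apart.

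The DNA before the start sites of 3 members is shown because theirs were the windows that held a motif match. RefSeq promoter windows (GRCm38.p6, 250 bases before to 50 after a start) were matched for 5 of the 7 genes, with 8 windows in all. Capitals mark matches, on either strand, to 4 motifs: the TATA box letters TATAAA, the E-box letters CACGTG, the GC box letters GGGCGG and the nuclear receptor half-site letters AGGTCA. No matches overlap in the windows printed. The lines give the 250 bases before the start, 5′ to 3′ on the gene's strand, for Ass1 (chr2:31470020-31470269, plus strand), Cobl (chr11:12464961-12465210, minus strand) and Fnd3c2 (chrX:106255373-106255622, minus strand).
Ass1: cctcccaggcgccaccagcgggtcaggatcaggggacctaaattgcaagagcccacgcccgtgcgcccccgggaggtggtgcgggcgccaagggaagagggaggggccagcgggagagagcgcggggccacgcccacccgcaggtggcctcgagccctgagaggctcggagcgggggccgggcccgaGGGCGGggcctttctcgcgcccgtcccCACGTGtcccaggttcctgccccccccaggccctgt
Cobl: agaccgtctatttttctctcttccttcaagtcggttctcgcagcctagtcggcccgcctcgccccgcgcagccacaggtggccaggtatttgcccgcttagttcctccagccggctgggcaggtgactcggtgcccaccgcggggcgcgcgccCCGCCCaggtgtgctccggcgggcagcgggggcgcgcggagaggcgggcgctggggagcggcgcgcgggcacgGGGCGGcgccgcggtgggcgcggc
Fnd3c2: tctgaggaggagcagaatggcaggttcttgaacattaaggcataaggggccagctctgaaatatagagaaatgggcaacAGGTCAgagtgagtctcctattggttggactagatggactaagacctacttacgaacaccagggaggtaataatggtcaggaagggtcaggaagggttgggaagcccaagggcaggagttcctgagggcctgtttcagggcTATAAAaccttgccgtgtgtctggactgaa
The Ass1 window was 74% G or C with 27 CpG dinucleotides, and that of Cobl 75.3% with 42, against medians of 52.7% and 7 over 32851 windows of the same length. The Fnd3c2 window was 48.7% G or C with 2 CpG. In the Ass1 window the E-box letters CACGTG began at -36 and the GC box letters GGGCGG at -63 relative to the start. The Cobl window held 3 GC boxes and no other motif of the 4, 1 of them after the start and not printed. In the Fnd3c2 window TATAAA began at -30 and AGGTCA at -171. Of all windows 13.6% held TATAAA, 7.15% CACGTG, 35.7% GGGCGG and 16.3% AGGTCA. The 2 windows each of Adgrf5 and Arhgef6 and the other window of Cobl held none of the 4, so the printed matches are not a feature that the 7 genes share.

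Arhgef6 (gene ID 73341, chromosome X) encodes alpha-PIX, an exchange factor for Rac and Cdc42. Its level was 1.04 and 1.40 CPM in ES cells. In the DMSO pairs it was 4.16 and 3.73 CPM at D4, 16.3 and 15.9 at D9, 27.5 and 27.8 at D12, 39.9 and 41.3 at D18, and 29.2 and 30.9 at D28. The 6 control groups did not overlap, with D18 highest, then D28, D12, D9, D4 and ES. In 10 nM and 100 nM TBBPA the levels were 5.22 and 4.37 CPM at D4, 8.65 and 8.29 at D9, 11 and 9.53 at D12, 16 and 18.8 at D18, and 18.3 and 20.2 at D28. Both TBBPA libraries lay above both DMSO libraries at D4 and below them at the other 4 days. The log2 change with TBBPA was 0.28 ± 0.16 (SE) at D4, -0.92 ± 0.12 at D9, -1.43 ± 0.11 at D12, -1.22 ± 0.10 at D18 and -0.64 ± 0.10 at D28. In TBBPA the D18 and D28 levels overlapped, whereas in DMSO both D18 libraries were above both of D28.

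Dlc1 (gene ID 50768, chromosome 8) encodes a GTPase-activating protein that binds tensins at focal adhesions. ES cells held 191 and 188 CPM. The DMSO pairs held 35.4 and 34.6 CPM at D4, 72.5 and 71.0 at D9, 82.4 and 82.7 at D12, 105 and 105 at D18, and 122 and 123 at D28. After the drop from ES cells to D4 its control level was higher at each later day, and no neighbouring groups in the order ES, D28, D18, D12, D9, D4 overlapped. The TBBPA libraries (10 nM, then 100 nM) held 31.6 and 29.4 CPM at D4, 61.2 and 57.1 at D9, 68.7 and 64.7 at D12, 85.9 and 83.4 at D18, and 111 and 104 at D28. These are 78.4 to 90.6% of the DMSO mean of the day, so Dlc1 had the smallest change of the 7 genes in mean over the days (-0.26 on the log2 scale), and both TBBPA libraries lay below both DMSO libraries at 5 of 5 days. The log2 changes were -0.20 ± 0.07 at D4, -0.28 ± 0.06 at D9, -0.31 ± 0.06 at D12, -0.31 ± 0.06 at D18 and -0.19 ± 0.06 at D28.

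Cobl (gene ID 12808, chromosome 11) encodes cordon-bleu, a nucleator of unbranched actin filaments. Its ES level was 422 and 399 CPM. In the DMSO pairs it was 26.7 and 24.9 CPM at D4, 52.3 and 51.5 at D9, 50.4 and 52.4 at D12, 58.3 and 57.3 at D18, and 87.5 and 85.4 at D28. ES cells were highest, then D28 and D18, D9 and D12 overlapped, and D4 was lowest. With TBBPA it was 18 and 15.2 CPM at D4, 42.3 and 47.5 at D9, 35.2 and 37.0 at D12, 43.6 and 44.6 at D18, and 56.3 and 51.5 at D28. Both TBBPA libraries lay below the DMSO pair at each day, nearest to it at D9. The log2 changes were -0.64 ± 0.09, -0.21 ± 0.07, -0.51 ± 0.08, -0.39 ± 0.07 and -0.68 ± 0.07 in the order of the days, and that at D9 was not called. An annotated antisense gene, Gm12002, overlaps Cobl on the opposite strand, and the sources do not state that strand was used in counting, so reads of the pair cannot be told apart.

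Ass1 (gene ID 11898, chromosome 2) encodes argininosuccinate synthase. It held 484 and 476 CPM in ES cells. The DMSO pairs held 92.9 and 97.4 CPM at D4, 120 and 122 at D9, 108 and 105 at D12, 85.4 and 88.7 at D18, and 105 and 110 at D28. ES cells exceeded every later group, D9 came next, D28 and D12 overlapped, and D4 and D18 followed. The TBBPA libraries held 66.3 and 70.4 CPM at D4, 94.3 and 113 at D9, 70.9 and 62.5 at D12, 71.7 and 72.8 at D18, and 79.6 and 83.4 at D28. All 10 of these values were below both DMSO values of their day. The log2 changes were -0.48 ± 0.08, -0.22 ± 0.07, -0.68 ± 0.07, -0.27 ± 0.07 and -0.40 ± 0.07 from D4 to D28, of which D9 was not called and had the 2 TBBPA libraries furthest apart, at 77.7 and 93.4% of DMSO.

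AU018091 (gene ID 245128, chromosome 7) is described in the deposited annotation as cationic amino acid transporter 5. ES cells held 208 and 163 CPM. The DMSO pairs held 39.9 and 41.2 CPM at D4, 55.4 and 60.9 at D9, 43.7 and 47.3 at D12, 29.0 and 30.5 at D18, and 19.5 and 17.3 at D28. It was the member whose control level was lowest at the last day, in the order ES, D9, D12, D4, D18, D28 with no overlap. In 10 nM and 100 nM TBBPA it held 23.4 and 21.1 CPM at D4, 37.7 and 41.5 at D9, 22.6 and 21.1 at D12, 17.5 and 22.5 at D18, and 13 and 18.3 at D28. The TBBPA libraries lay below the DMSO pair from D4 to D18, while at D28 the 100 nM library lay between the DMSO libraries. The log2 changes were -0.86 ± 0.14, -0.55 ± 0.13, -1.06 ± 0.14, -0.57 ± 0.14 and -0.23 ± 0.15, the last not called.

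Adgrf5 (gene ID 224792, chromosome 17), also known as GPR116, encodes an adhesion G protein-coupled receptor known from endothelium and from the lung epithelium that makes surfactant. Its level was 1.90 and 1.86 CPM in ES cells. In the DMSO pairs it was 0.667 and 0.615 CPM at D4, 12.6 and 12.2 at D9, 22.8 and 23.7 at D12, 19.9 and 19.6 at D18, and 11.6 and 10.9 at D28. The groups did not overlap in the order D12, D18, D9, D28, ES, D4. With TBBPA it was 0.310 and 0.579 CPM at D4, 5.99 and 6.33 at D9, 8.80 and 7.45 at D12, 7.33 and 7.04 at D18, and 5.82 and 6.20 at D28. From D9 on both TBBPA libraries were at 32.0 to 54.9% of the DMSO mean, and their levels lay between 5.82 and 8.80 CPM. The log2 changes were -0.48 ± 0.37 at D4, not called, and -1.01 ± 0.13, -1.52 ± 0.12, -1.46 ± 0.12 and -0.92 ± 0.13 at the later days.

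Fnd3c2 (gene ID 331491, chromosome X) encodes a protein with fibronectin type III domains and is annotated as a relative of the Fndc3 genes. It had 0 counts in the first ES library, 1 count (0.0608 CPM) in the second and 0 in all 4 D4 libraries, and a count of 0 allows up to 0.182 CPM at D4 (3 counts, counting error only). The DMSO pairs held 2.12 and 2.58 CPM at D9, 4.10 and 3.77 at D12, 4.17 and 4.18 at D18, and 2.67 and 3.67 at D28. It was thus the least abundant member, highest at D18, then D12, D28 and D9, with no overlap among these. The TBBPA libraries held 0.848 and 0.685 CPM at D9, 1.57 and 0.906 at D12, 0.880 and 0.995 at D18, and 0.658 and 1.02 at D28, which rest on 12.56 to 30.19 estimated counts each. They were at 20.8 to 39.8% of the DMSO mean, with log2 changes of -1.57 ± 0.34, -1.69 ± 0.29, -2.12 ± 0.30 and -1.90 ± 0.32. No fold is given at D4, where both groups were at 0.

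**Figure D1:**
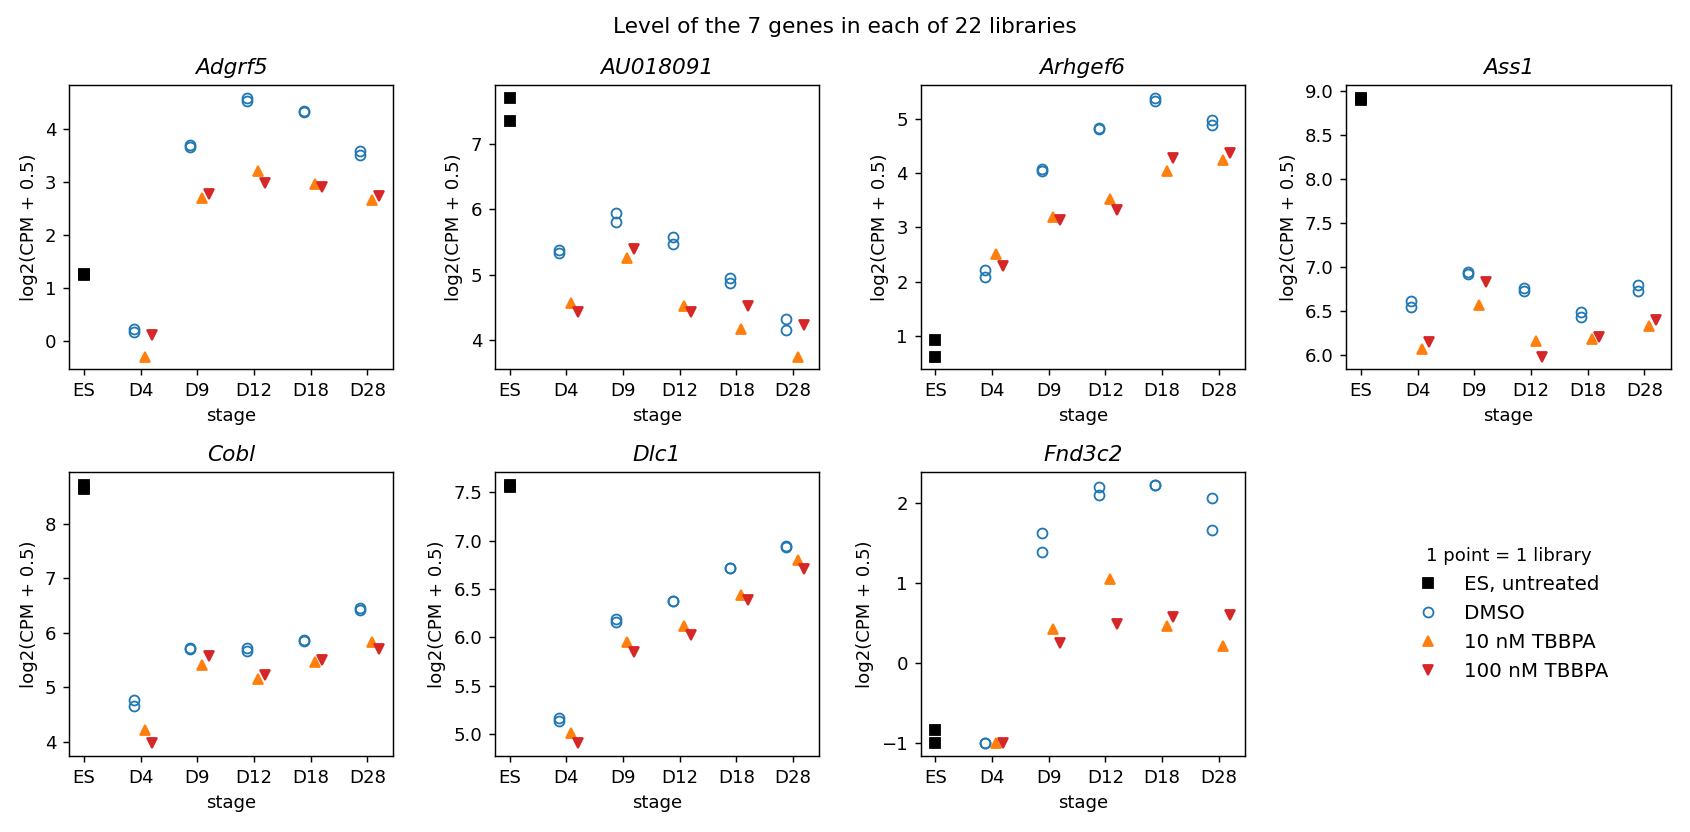
Level of each gene as log2(CPM + 0.5) (vertical axis) at each stage (horizontal axis), 1 point per library: black squares untreated ES, open circles DMSO, up triangles 10 nM and down triangles 100 nM TBBPA. Ass1, Cobl, Dlc1 and AU018091 are highest in ES cells, whereas Arhgef6, Adgrf5 and Fnd3c2 are highest between D12 and D18 in DMSO.

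**Figure D2:**
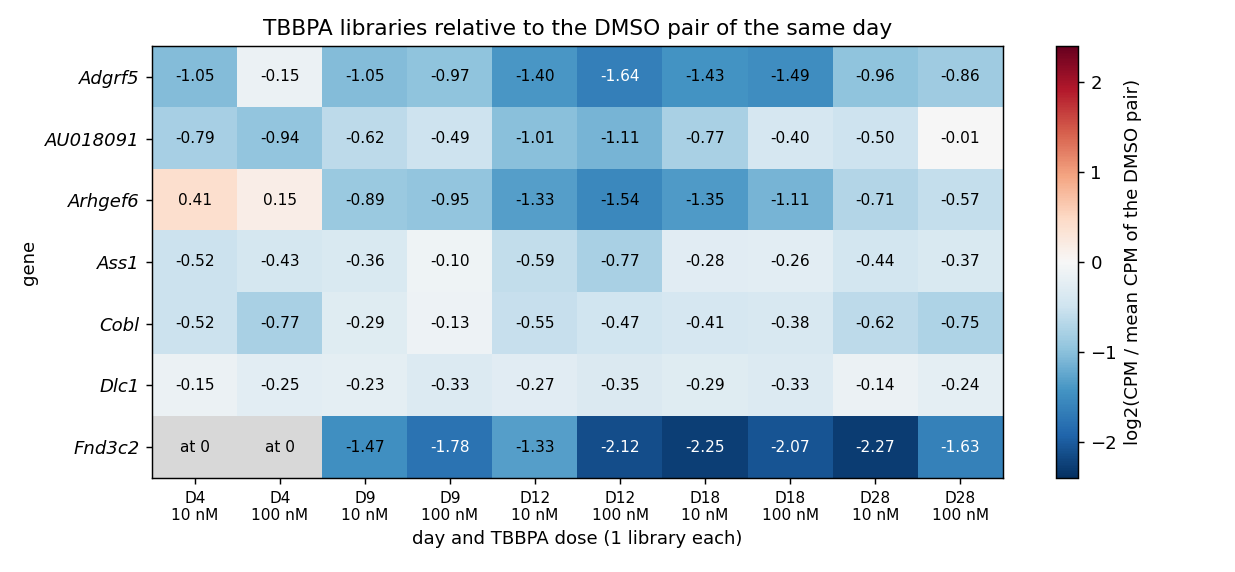
Each TBBPA library as log2 of its CPM over the mean CPM of the DMSO pair of its day, by gene (rows) and by day and dose (columns); blue is lower and red higher with TBBPA, and grey marks cells where all libraries were at 0. The values run from -2.27 (Fnd3c2, D28, 10 nM) to 0.41 (Arhgef6, D4, 10 nM).

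Levels per length place the genes differently from CPM. In the authors' FPKM, mean ES levels were 260 for Ass1, 65.2 for Cobl, 46.7 for AU018091 and 26.6 for Dlc1, and 0.280, 0.235 and 0.005 for Adgrf5, Arhgef6 and Fnd3c2. At D12 with DMSO the FPKM were 68.6 for Ass1, 13.7 for Dlc1, 13.6 for AU018091, 9.62 for Cobl, 6.32 for Arhgef6, 3.74 for Adgrf5 and 1.12 for Fnd3c2. Ass1 had the highest FPKM of the 7 at each control stage, while Arhgef6 passed AU018091 by D18, with FPKM of 9.60 and 9.16. The deposited transcript length used for these values was fixed for Ass1 and Fnd3c2 and varied between libraries for the others, most for Adgrf5, from 5545 to 6738 bases.

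The control steps are another contrast than the one that chose the genes, but they share its DMSO libraries, and a gene with few DMSO counts at most days could hardly have met the rule. The members' counts at these steps are therefore a description. Each step was tested with edgeR's quasi-likelihood test and Benjamini-Hochberg adjustment over 16203 genes. From ES cells to D4 the test called 5 of the 7 genes lower and 1 higher, against a background of 30.3% of all genes lower and 31.9% higher. Cobl fell by 3.99 ± 0.07 on the log2 scale (adjusted p = 1.42e-14), Dlc1 by 2.44 ± 0.06 (2.61e-13), Ass1 by 2.34 ± 0.05 (2.66e-13), AU018091 by 2.20 ± 0.11 (5.88e-10) and Adgrf5 by 1.57 ± 0.24 (5.14e-05). Arhgef6 rose by 1.68 ± 0.19 (2.46e-06). Fnd3c2 was at or under 1 count in each of these libraries.

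From D4 to D9 all 7 genes rose, where 31.9% of all genes did and 28.9% fell. Adgrf5 rose by 4.28 ± 0.17 (adjusted p = 6.84e-11 in edgeR's test), Arhgef6 by 2.02 ± 0.12 (3.49e-09), Dlc1 by 1.04 ± 0.06 (1.98e-09), Cobl by 1.01 ± 0.07 (1.23e-08), AU018091 by 0.52 ± 0.11 (0.000871) and Ass1 by 0.35 ± 0.05 (6.48e-05). Fnd3c2 was at least 13-fold higher at D9 (9.91e-07), reckoned against 3 counts in each D4 library. With TBBPA it was at least 4.21-fold higher at D9 than that floor. Over all genes 5170 rose and 4679 fell at this step, or 6311 and 3459 with library size alone, a scaling that shifts the median of all genes by 0.15, under which all 7 still rose.

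From D9 to D12 the test called 4 members higher and 2 lower, against 17.5% and 15.6% of all genes. Adgrf5 rose by 0.92 ± 0.10 (edgeR adjusted p = 1.32e-05), Arhgef6 by 0.80 ± 0.09 (2.01e-05), Dlc1 by 0.22 ± 0.05 (0.00689) and Fnd3c2 by 0.77 ± 0.23 (0.0214). AU018091 fell by 0.34 ± 0.10 (0.0242) and Ass1 by 0.17 ± 0.05 (0.0249). Of these 6 calls, those of AU018091, Ass1 and Fnd3c2 were lost in DESeq2 (adjusted p = 0.0533, 0.103 and 0.113). Without any 1 of the 4 libraries compared, Fnd3c2 (0.0542 to 0.159) and Ass1 (0.0732 to 0.141) lost their calls too, AU018091 did without 3 of them (0.0577 to 0.176), and without the second D9 DMSO library Dlc1 did (0.0651). Over all genes 2828 rose and 2533 fell, or 3409 and 1786 with library size alone.

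The later control steps moved the genes in different directions. Between D12 and D18, where 20.7% of all genes rose and 17.1% fell, Arhgef6 rose by 0.56 ± 0.08 (edgeR adjusted p = 0.000137), Dlc1 by 0.35 ± 0.05 (0.000119) and Cobl by 0.18 ± 0.06 (0.0341). AU018091 fell by 0.61 ± 0.11 (0.000684) and Ass1 by 0.29 ± 0.05 (0.000783). The values for Adgrf5 (-0.23 ± 0.10) and Fnd3c2 (0.08 ± 0.21) did not pass, and the Cobl call was lost without any 1 of the libraries compared (0.0729 to 0.19) and in DESeq2 (0.0651).

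Between D18 and D28 3 members rose and 3 fell, against 24.9% and 28.1% of all genes. Cobl rose by 0.58 ± 0.06 (edgeR adjusted p = 2.25e-06), Ass1 by 0.30 ± 0.05 (0.0003) and Dlc1 by 0.23 ± 0.05 (0.00225). Adgrf5 fell by 0.81 ± 0.10 (1.46e-05), AU018091 by 0.70 ± 0.12 (0.000248) and Arhgef6 by 0.44 ± 0.08 (0.000606), and Fnd3c2, at -0.40 ± 0.22, did not pass. The regulators of the cytoskeleton thus did not share a direction: Dlc1 and Cobl were higher at D28 than at D18 and Arhgef6 lower.

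With TBBPA the test called 3 members lower at D4, 5 at D9, 7 at D12, 7 at D18 and 6 at D28. Of all 16383 genes it called 0.372, 0.964, 9.19, 4.56 and 3.44% lower at these days, and 0.0855, 1.37, 11.9, 5.96 and 3.65% higher. Both TBBPA libraries lay below both DMSO libraries for 5, 7, 7, 7 and 6 of the members, and for 22.9, 23.5, 28.3, 23.9 and 25.1% of all genes. These counts follow from the choice of the genes. Without any 1 of the libraries compared, 0 to 1 members were called at D4, 2 to 3 at D9, 7 at D12, and 5 to 6 at D18 and at D28. The rule was met by 22 genes (0.134%), the 7 and 15 others, and by none at all 5 days, while 10 genes (0.061%) were higher at 4 days. The unmet day differed between members: D4 for Adgrf5, Arhgef6, Dlc1 and Fnd3c2, D9 for Ass1 and Cobl, and D28 for AU018091. Of the 15 others those with the lowest mean change were Prl2c5, a prolactin-family gene of the placenta (-1.92 on the log2 scale), Ctsj, a placental cathepsin (-1.35), 3830417A13Rik (-1.0), Zfp36l3 (-0.87) and Lgals3, galectin-3 (-0.87). These means include D4 values near the floor. At D4 Prl2c5 (-2.46) was at 0 to 0.0602 CPM with DMSO and 0 with TBBPA, and Ctsj was at 0 in both.

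A further 121 genes were called lower at exactly 3 days, which makes 143 (0.873%) at 3 or more, with the lowest means for Pax1 (-1.63), Prl2a1 (-1.61), Prl7d1 (-1.55), Prl2c3 (-1.37) and Adra2b (-1.05). Just inside the threshold, the fourth smallest adjusted p of a gene over the days was 0.0471 for Dlc1 and 0.0278 for AU018091 in edgeR's test. Just outside it was 0.0506 for Vill, 0.0513 for Grhl2 and 0.0522 for Pramef12. When each DMSO pair was summed to 1 library, no gene met the rule, and the days at which the members were called lower were 2 for Adgrf5, Arhgef6, Cobl and Fnd3c2, 1 for AU018091 and Ass1, and 0 for Dlc1. At D12, 6 of the 7 were called in that setting.

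The doses were compared over the 5 days in a model with the day as a term. The same TBBPA libraries entered the choice of the genes. The contrast sets 100 nM against 10 nM, but the DMSO libraries were in the fit. A change with TBBPA that varied between days therefore widens the interval of a gene and enters its p-value. Of 15521 genes edgeR's test called 0 (0%), with 997 at an unadjusted p under 0.05, DESeq2 6 and limma on log2(FPKM + 1) 2. The change from 10 nM to 100 nM was 0.15 for AU018091 (95% confidence interval -0.10 to 0.41), 0.06 for Ass1 (-0.08 to 0.20), 0.01 for Adgrf5 (-0.27 to 0.28) and 0.01 for Arhgef6 (-0.40 to 0.42). It was 0.00 for Cobl (-0.16 to 0.15) and -0.12 for Fnd3c2 (-0.65 to 0.41). For Dlc1 it was -0.09 (-0.16 to -0.01), with the 100 nM library below the 10 nM library at 5 of 5 days, an unadjusted p of 0.0226 in edgeR's test and an adjusted p of 0.739, which misses the threshold. The share of all genes with the same dose lower at each of the 5 days was not taken, so the count for Dlc1 is a description. The adjusted p of the 7 genes ran from 0.739 to 0.998. These intervals do not show that the doses act alike, and they are narrowest for Dlc1 and widest for Fnd3c2.

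**Figure D3:**
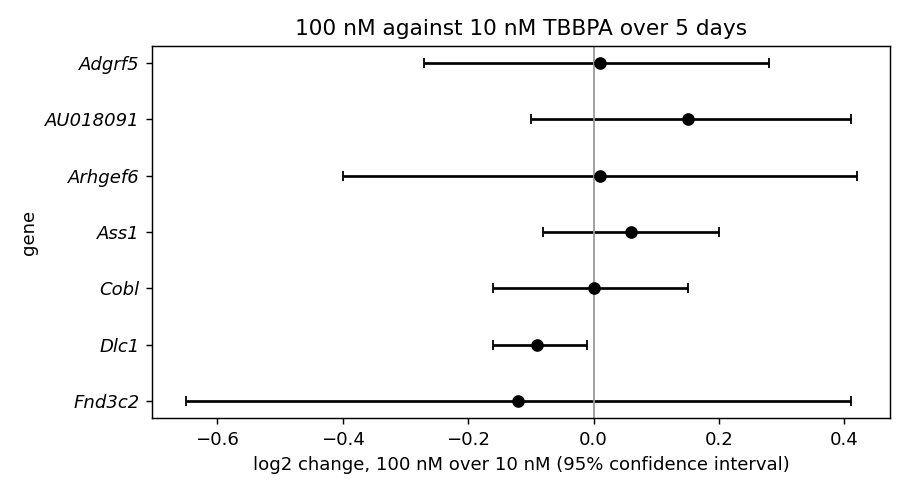
Log2 change from 10 nM to 100 nM TBBPA over 5 days (horizontal axis) for each gene (vertical axis), with points for the estimate and bars for the 95% confidence interval. The interval of Dlc1 (-0.16 to -0.01) leaves out 0 before adjustment, and the other 6 include it.

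Genes of the same pathways were read from lists in the same TBBPA comparison, at D12 unless another day is given, where 11.9% of all genes were called higher and 9.19% lower. The list of Rac and Cdc42 exchange factors and their partners, Arhgef6 included, had 6 of 29 members higher and 5 lower. Arhgef7, which encodes beta-PIX, was called at no day, with changes of -0.07 to 0.16, and Pak1, a kinase that binds the PIX proteins, rose by 0.41 ± 0.08 at D12 (edgeR adjusted p = 0.00127) and 0.44 ± 0.08 at D18 (0.00115). Of the nearest relatives of Dlc1, Stard8 fell by 0.83 ± 0.11 at D12 (edgeR adjusted p = 1.36e-05) and Stard13 was called at no day, with -0.38 to 0.28.

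Actin nucleators, Cobl included, were lower in 10 of 35 cases and higher in 3 at D12. Cobll1, the relative of Cobl, fell by 0.72 ± 0.10 at D12 (edgeR adjusted p = 1.61e-05) and rose by 0.39 ± 0.09 at D28 (0.00998), the day at which the change of Cobl was -0.68. The formin Inf2 fell by 0.53 ± 0.09 at D12 (0.000303). Of the arginine and urea cycle genes, Ass1 included, 4 of 21 were lower and 3 higher at D12. Asl, which encodes the next enzyme after Ass1, was called at no day, with changes of -0.21 to 0.13, and Gatm, which uses arginine to make a creatine precursor, rose by 0.88 ± 0.21 (0.00557). The SLC7 transporters were lower in 3 of 12 cases and higher in 1, with Slc7a8 at -0.88 ± 0.16 (0.000415). Slc7a2, a cationic amino acid transporter, fell by 0.80 ± 0.12 at D18 (8.41e-05) and by 0.74 ± 0.10 at D28 (0.000214).

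Adhesion receptors other than Adgrf5 were higher in 11 of 26 cases and lower in 2. Adgrb1 rose by 1.04 ± 0.11 (edgeR adjusted p = 8.88e-07) and Celsr2 by 0.90 ± 0.07 (7.73e-08), whereas Adgre5 fell by 0.66 ± 0.13 (0.00131). Among the Fndc3 genes, Fndc3b fell by 0.47 ± 0.09 at D12 (0.000937) and by 0.34 ± 0.09 at D18 (0.0165), and Fndc3c1 by 0.88 ± 0.25 at D28 (0.0351). Fndc3a rose by 0.30 ± 0.08 at D28 (0.0186). Apart from the members, none of the genes in these 6 pathway lists was called lower at 4 or more days. Of all genes only 0.134% were, so this count in lists of such size does not set the members apart.

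Markers of several cell types moved with TBBPA at the same days, and their part in the changes of the 7 genes was not tested. Of all genes 0.372, 0.964, 9.19, 4.56 and 3.44% were called lower from D4 to D28, and 0.0855, 1.37, 11.9, 5.96 and 3.65% higher. Of 24 trophoblast markers, a list added after the data were seen, 0 were called lower at D4, 9 at D9, 11 at D12, 10 at D18 and 5 at D28, with 1 higher at D28. Their summed level was 130 to 131 CPM with DMSO and 98.8 to 115 with TBBPA at D4, 427 to 433 and 271 to 288 at D9, 484 and 276 to 304 at D12, 417 to 424 and 296 to 297 at D18, and 318 to 326 and 238 to 255 at D28. Of the 24 markers, 6 (Prl3d1, Prl3b1, Prl2c2, Ctsj, Ctsq and Ctsr) were at 0 in the D4 DMSO libraries, when Fnd3c2 was too. The others were not, and in ES cells the list summed to 325 to 398 CPM, where Fnd3c2 had at most 1 count. No marker of the list was at 0 in DMSO from D9 on. The share of all genes with such a course was not taken. Of the genes that met the rule for 4 days beside the members, 5 are on this list, which was drawn up with them in view.

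Epithelial markers were lower for 15 of 16 genes at D12, 8 at D18, 5 at D9, 2 at D28 and 0 at D4, with 1 higher at D28. Krt7, the keratin that met the rule for 4 days, is among them. The sum at D12 was 2475 to 2555 CPM with DMSO and 1563 to 1744 with TBBPA. Endothelial markers, of interest for Adgrf5, were lower in 4 of 15 cases at D12 (280 to 283 against 200 to 207 CPM). At D18 2 were lower and 1 higher. At D28 3 were higher and 1 lower. Adgrf5 was at 51.6 and 54.9% of DMSO at that day, values that are part of its choice. A link between these markers and Adgrf5 was not tested. Naive pluripotency markers, of interest for the members highest in ES cells, were lower in 13 of 16 cases at D12 (827 against 516 to 517 CPM). They were lower in 4 cases at D4, 1 at D9 and 0 at D18, and 1 was higher at D28. At D18 they summed to 680 to 685 CPM with DMSO and 628 to 674 with TBBPA. The calls of Ass1, Cobl, Dlc1 and AU018091 at D18 were part of their choice. Visceral endoderm markers were lower in 10 of 16 cases and higher in 1 at D12 (2103 to 2137 against 1117 to 1237 CPM), and higher in 5 and lower in 0 at D28. Mesenchymal and muscle markers were lower in 5 of 15 cases at D12, 11 at D18 and 5 at D28, with 1 higher at D28. Their sum at D28 was 15176 to 15779 CPM with DMSO and 10063 to 10881 with TBBPA. Neural markers were higher in 15 of 15 cases at D12 (827 to 848 against 1546 to 1649 CPM). None of the markers of these 6 lists was at 0 in the D12 libraries.

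**Figure D4:**
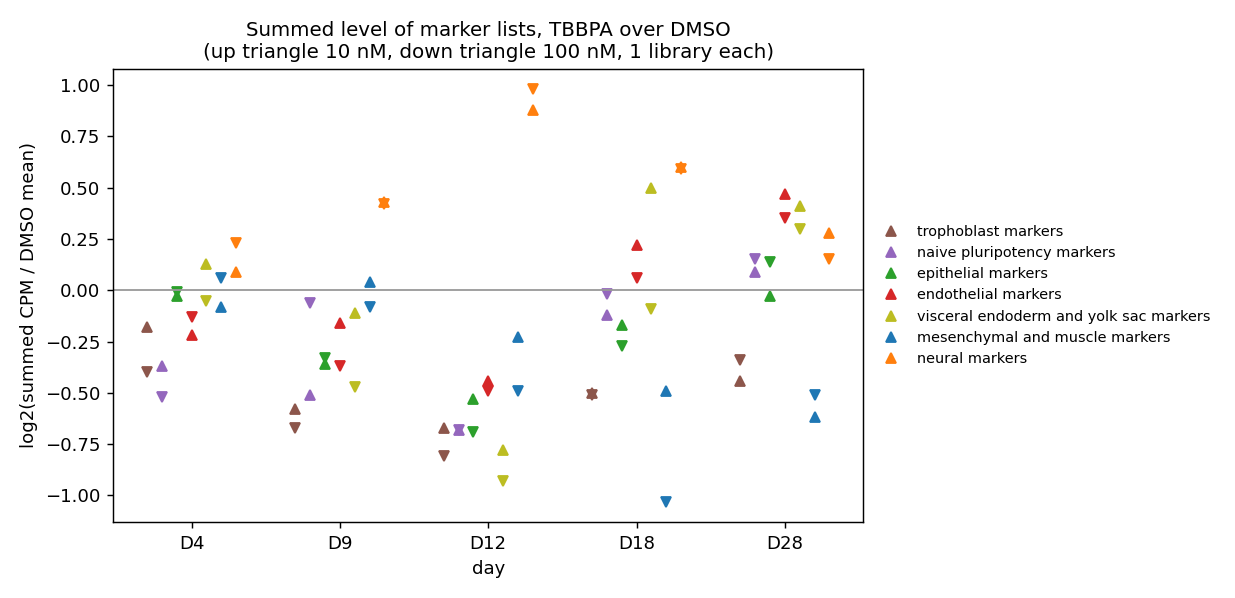
Summed CPM of 7 marker lists in each TBBPA library as log2 over the mean of the DMSO pair (vertical axis) at each day (horizontal axis), with up triangles for 10 nM and down triangles for 100 nM. Trophoblast markers lie below 0 in all 10 libraries, from -0.18 to -0.81, while neural markers lie above it, up to 0.98. The trophoblast list was added after the data were seen. It holds 5 genes that met the rule for 4 days beside the members, and the epithelial list 1, so these falls are in part built in.

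The course of the 7 genes over the 22 libraries was compared by Pearson's r of log2(CPM + 0.5). These libraries share days and treatments, so r mainly describes the course over time and carries no p. Fnd3c2 went with Adgrf5 (r = 0.95) and Arhgef6 (0.90), and Adgrf5 with Arhgef6 (0.83). Ass1 went with AU018091 (0.89) and Cobl (0.89), and Cobl with Dlc1 (0.89). Dlc1 went less with AU018091 (0.30) than with Adgrf5 (0.50) or Fnd3c2 (0.38), so the genes did not split cleanly into sets. The lowest r was -0.59, for AU018091 and Arhgef6. Among 14347 genes with a mean of at least 1 CPM, the most like Adgrf5 were Shroom1 (0.974) and Snai2 (0.969), and the most like Arhgef6 were Adamts15 (0.965) and Rarb (0.963). For Fnd3c2 they were Prl2c5 (0.962) and Serpinb9e (0.952), which were called lower at 4 and 3 days. For AU018091 they were Slc30a2 (0.974) and Tdh (0.961), for Ass1 Laptm5 (0.970) and Itgal (0.968), for Cobl Tmem64 (0.990) and Arl14epl (0.969), and for Dlc1 Kank4 (0.987) and Slc1a1 (0.978). Of these 14 genes Prl2c5 was the only one that also met the rule for 4 days, which 0.134% of all genes did. Itgal was called lower at no day, Rarb at 1, Serpinb9e at 3 and the others at 2. The TBBPA libraries that chose the members enter r, so a likeness in these calls is in part built in.

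In the gene ontology terms deposited with the counts, Adgrf5, AU018091 and Fnd3c2 are listed as integral components of a membrane, a term held by 21.9% of the 19721 genes. Cobl and Dlc1 are listed for ruffles (0.837% of genes) and for terms that name actin (5.28%), and Arhgef6 for lamellipodia (0.918%). Ass1 shared the cytosol term with Dlc1 (16.5%), so no term read here was common to all 7.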

How the data were processed

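The deposited tables, 1 per library, list expected counts, which are the authors' estimates of reads per gene, and FPKM values made by the authors, per the file headers. HISAT, Bowtie2 and GRCm38.p5 are named in the submitters' processing notes, and what counted the reads was not given in the sources used here. Genes that a table does not list were set to 0, and expected counts were rounded to whole numbers for the tests.

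Counts were tested with edgeR 4.0.16 in R 4.3.3 (TMM, filterByExpr with a minimum count of 10 and a minimum total of 15, robust quasi-likelihood F tests, Benjamini-Hochberg threshold 0.05). Control steps were fitted on the 12 control libraries (6 residual degrees of freedom), TBBPA against DMSO on all 22 (11) with both doses of each day as a pair, and the doses on the 20 embryoid body libraries (13). Each SE was worked out from the log2 change and the F value of its test, and the confidence intervals from that SE. At low counts they can differ from the p-value. Tests were checked on simulated data. The members, lists and tests were chosen with earlier results of these data known. Named were all 7 members, up to 5 genes of lowest mean change inside and outside the rule, the 2 genes most like each member, and list members that passed most often, with close relatives of the members.

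Alternatives were DESeq2 1.42.0, RLE scaling, library size alone, no filter, a stricter filter, limma 3.58.1 on log2(FPKM + 1) and log2(FPKM + 0.1), the replicate number as a block, no day term, the TBBPA libraries alone for the doses, and each library or day left out. Summing the DMSO pairs, leaving out the ES libraries and the trophoblast list were chosen after seeing the data. Motifs were searched with Python 3.11.15 and figures drawn with matplotlib 3.10.9. The result for 1 further gene list is not reported here.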

Additional observations from a re-analysis of the deposited data

Results flagged for a closer look

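Arhgef6 was the one member whose TBBPA libraries lay on opposite sides of the DMSO pair at different days. At D4 both TBBPA libraries were above both DMSO libraries (log2 change 0.28), and at the other 4 days both were below. The D4 change was not called (edgeR adjusted p = 0.599). The share of all genes with both TBBPA libraries above both DMSO libraries at D4 was not taken. The difference between the days was not tested, since the contrast chose the gene. Groups hold at most 2 libraries, too few to look for a library far from the rest of its group.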

How the results depend on the processing

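With the replicate number as a block the control steps called 10006, 9779, 5240, 6034 and 8479 genes and 6, 7, 6, 5 and 6 members, the members' calls being as without it. The numbers share no stated origin, and deviations of same-numbered libraries correlated at -0.05 to 0.23 over 15 pairs of groups. From D9 to D12 DESeq2 called 3 members, and leaving out 1 library gave 3236 to 3426 genes and 2 to 4 members. For TBBPA, leaving out 1 library gave 1 to 29 genes and 0 to 1 members at D4, 93 to 287 and 2 to 3 at D9, 1718 to 2172 genes at D12, 735 to 1342 at D18 and 231 to 1303 at D28. DESeq2 called 160 at D4. Limma on log2(FPKM + 0.1) called 142 at D4, 193 at D9, 1043 at D18 and 639 at D28. Without the ES libraries 269, 771, 2602 and 2074 were called at these days, and 53 genes were lower at 4 or more days. With the DMSO pairs summed the counts were 0 at D4 and D9 (edgeR, with 696 and 917 at an unadjusted p under 0.05), 781 at D12, 172 at D18 and 6 at D28, with 0, 0, 3 and 1 members at D4, D9, D18 and D28, and 0 genes lower at 4 or more days. With library size alone the D28 split was 432 higher and 688 lower, against 598 and 564. For the doses DESeq2 called 6 genes, limma on log2(FPKM + 1) 2, and leaving out a day 0 to 4. Over the days left out in turn, the dose difference ran from -0.03 to 0.09 for Adgrf5, -0.06 to 0.06 for Arhgef6 and -0.34 to 0.18 for Fnd3c2. It changed sign for Arhgef6 in DESeq2 (-0.03), without D18 (-0.06) and without D28 (-0.04), for Adgrf5 with no day term (-0.03) and without D4 (-0.03), D9 (-0.02) or D28 (-0.03), and for Fnd3c2 without D12 (0.18). The cause was not tested. Of the other comparisons of values, 623 of those that left out no library or day kept direction and side of the threshold and 32 lost the call. Of those that left out 1 library or day, 261 kept both, 47 lost the call and 1 gained it, beside 6 changes of sign. Low counts limit Fnd3c2, and Adgrf5 at D4.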
